A study of Mus musculus with 2 samples.

Results

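The 10 core circadian clock genes Arntl, Clock, Npas2, Per1, Per2, Per3, Cry1, Cry2, Nr1d1 and Nr1d2 were taken by symbol from the 21851 protein-coding genes of the annotation. Their chromatin was measured by DNase-seq, which maps open DNA by the cuts that the enzyme DNase I makes in nuclei. The 2 libraries came from the gastrocnemius, a calf muscle, of male B6CASTF1/J mice aged 36 days, which are hybrids of laboratory strain C57BL/6J and wild-derived CAST/EiJ. They are biological replicates 1 and 2 of a single group, per the labels, so no contrast between conditions exists and no test was run. The labels describe them as differently numbered males with separate biosample labels, but give both the same donor label. The hour at which tissue was taken is not given in the sources used here.

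The clock is a transcriptional feedback loop that runs in most cells, muscle fibres among them. ARNTL, also called BMAL1, pairs with CLOCK or NPAS2 and activates genes that carry an E-box (CACGTG). PER and CRY proteins build up and repress that pair, while NR1D1 and NR1D2 (REV-ERB alpha and beta) repress Arntl through ROR elements (ANTNGGTCA). D-boxes (TTANGTAA) are bound by the output factors DBP, TEF and HLF and by the repressor NFIL3, and cyclic AMP response elements (CRE, TGACGTCA) by CREB.

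A choice of the open regions that carried these motifs in footprints is shown first, because the results on motifs turn on them. They are reference sequence of the mm10 build, the mouse genome GRCm38, written 5′ to 3′ on the gene's own strand and kept off annotated exons, so CAST/EiJ alleles may differ. Capitals mark every E-box, E-prime box (CACGTT, a variant E-box), ROR element, D-box or CRE, read on either strand. No sequence of Per2 was matched in the promoter table used, and motifs were searched in the other 9 genes only.
Per1 promoter (chr11:69094833-69095122, plus strand): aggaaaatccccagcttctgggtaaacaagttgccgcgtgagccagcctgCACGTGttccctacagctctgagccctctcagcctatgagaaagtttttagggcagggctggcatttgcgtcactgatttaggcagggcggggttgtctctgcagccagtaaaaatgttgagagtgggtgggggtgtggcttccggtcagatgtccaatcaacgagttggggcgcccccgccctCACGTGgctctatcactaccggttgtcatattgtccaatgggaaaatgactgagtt
Per1 intron 1 (chr11:69096981-69097240, plus strand): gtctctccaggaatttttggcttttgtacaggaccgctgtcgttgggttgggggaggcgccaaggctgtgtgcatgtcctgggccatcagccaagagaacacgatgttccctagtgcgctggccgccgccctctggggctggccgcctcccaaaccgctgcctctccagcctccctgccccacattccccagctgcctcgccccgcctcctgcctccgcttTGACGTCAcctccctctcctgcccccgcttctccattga
Per3 promoter (chr4:151044691-151044980, minus strand): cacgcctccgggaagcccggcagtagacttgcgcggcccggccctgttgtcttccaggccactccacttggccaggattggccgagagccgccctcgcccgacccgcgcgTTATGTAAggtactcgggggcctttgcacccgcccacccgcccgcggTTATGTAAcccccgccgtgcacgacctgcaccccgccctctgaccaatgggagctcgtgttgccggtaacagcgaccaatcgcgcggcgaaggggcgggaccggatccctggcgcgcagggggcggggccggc
Cry1 promoter (chr10:85185065-85185354, minus strand): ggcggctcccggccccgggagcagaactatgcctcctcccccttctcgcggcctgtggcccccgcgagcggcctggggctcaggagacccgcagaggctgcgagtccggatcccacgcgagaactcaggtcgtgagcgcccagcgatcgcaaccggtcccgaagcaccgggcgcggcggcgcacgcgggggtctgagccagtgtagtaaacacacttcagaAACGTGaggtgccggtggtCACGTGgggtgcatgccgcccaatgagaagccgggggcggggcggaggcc
Cry2 intron 3 (chr2:92423841-92424040, minus strand): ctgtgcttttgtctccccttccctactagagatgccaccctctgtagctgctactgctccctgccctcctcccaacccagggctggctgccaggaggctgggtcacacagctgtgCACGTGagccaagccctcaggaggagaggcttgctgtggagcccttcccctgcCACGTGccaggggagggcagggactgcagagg
Nr1d1 intron 1 (chr11:98773872-98774161, minus strand): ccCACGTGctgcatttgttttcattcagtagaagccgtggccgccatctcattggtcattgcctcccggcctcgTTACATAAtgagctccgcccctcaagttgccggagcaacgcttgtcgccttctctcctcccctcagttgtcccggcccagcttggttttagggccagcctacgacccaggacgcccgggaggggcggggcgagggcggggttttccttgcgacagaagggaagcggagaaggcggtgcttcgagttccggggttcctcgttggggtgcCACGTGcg
Nr1d2 intron 1 (chr14:18238451-18238740, minus strand): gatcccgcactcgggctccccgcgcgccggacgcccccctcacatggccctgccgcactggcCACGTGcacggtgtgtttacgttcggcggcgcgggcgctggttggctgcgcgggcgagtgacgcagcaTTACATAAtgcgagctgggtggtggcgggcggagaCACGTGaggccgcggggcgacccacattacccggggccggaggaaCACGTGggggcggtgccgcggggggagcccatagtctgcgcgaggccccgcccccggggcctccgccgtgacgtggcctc

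A promoter peak was a peak of the authors' shorter list within 500 bp of a protein-coding start site. Of the 10 clock genes 9 had such a peak in both libraries, beside 54.2% of all protein-coding genes. The exception was Npas2, which had none in replicate 1 and a peak value of 0.775 in replicate 2. The value is the authors' signal height, a linear scale whose scaling is not stated, so members were placed by percentile among the 12197 promoters with a peak in replicate 1 and the 12478 in replicate 2. The 9 genes had a median value of 14.5 in replicate 1 and 8.21 in replicate 2, against 5.73 and 3.95 over all promoters open in both. The members did not rank alike. The lowest percentile of the 7 repressor genes in either library was the 84.0th, of Per2 in replicate 1. No value of the 3 activator genes reached it, and Arntl came closest, at the 81.8th in replicate 1. That dividing line was read from these same values.

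**Figure D1:**
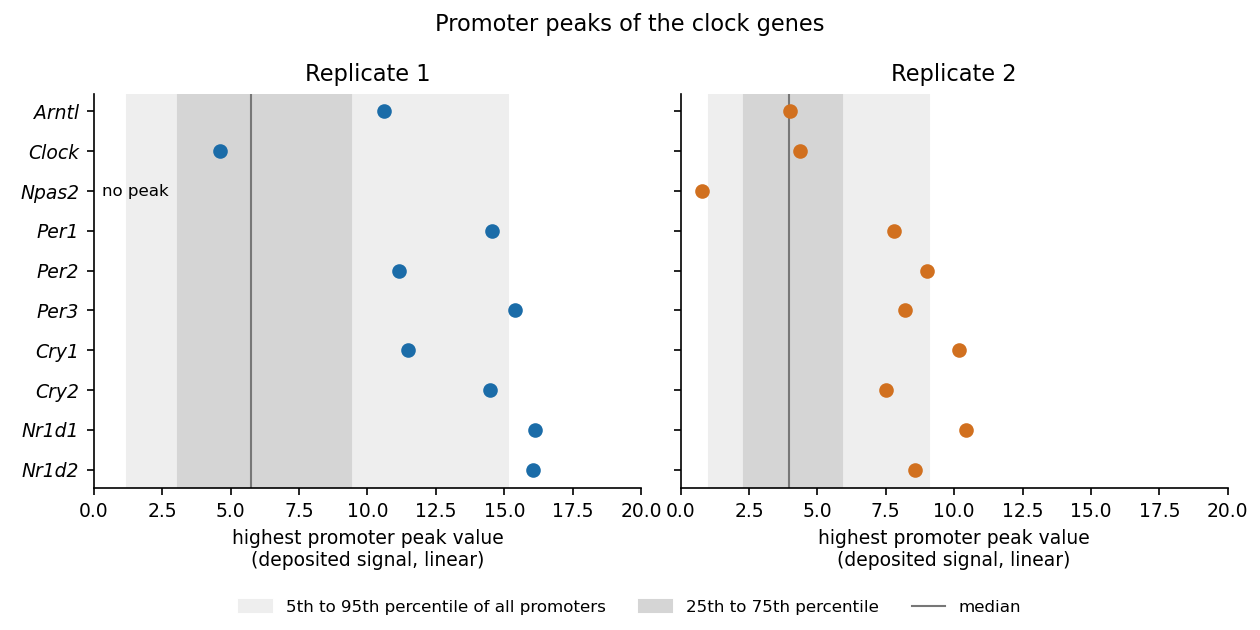
Highest promoter peak value of each clock gene (x axis, linear authors' signal) in replicate 1 (left) and replicate 2 (right), 1 point per gene. Grey bands give the 5th to 95th and 25th to 75th percentiles and the line the median over 11849 genes with a promoter peak in both libraries. The repressor genes lie right of the darker band in both, as Arntl does in replicate 1 alone. Clock lies inside it in both, and Npas2 has no peak in replicate 1.

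Among the activators, Arntl (ENSMUSG00000055116.8, chromosome 7, 113207465 to 113314126, plus strand) had 10.6 in replicate 1 and 4.0 in replicate 2. These were the 81.8th and 53.2nd percentiles, so the libraries placed this promoter differently. Clock (ENSMUSG00000029238.11, chromosome 5, 76209868 to 76304792, minus strand) had 4.6 and 4.35, at the 42.3rd and 58.3rd percentiles, near the middle of all promoters. Npas2 (ENSMUSG00000026077.15, chromosome 1, 39193731 to 39363236, plus strand), a CLOCK relative that can take its place, lay at the 4.17th percentile in replicate 2. The longer list of replicate 1 held no promoter peak of Npas2 either. A region open in both libraries lay upstream, at 39192721 to 39193120, with 1.26 in replicate 1 and 0.92 in replicate 2. It lay 611 bp from the annotated gene start and 1092 bp from the coding start used, so it was not counted as a promoter peak.

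Start sites of Arntl and Clock were not all open. The Arntl start at 113234623 and the Clock start at 76274012 had no peak in either library, while the upstream starts of both genes did. Clock had a pair of promoter regions open in both libraries, at 76304681 to 76305120 over the gene start and at 76303881 to 76304480 in intron 1. The intronic region had 3.28 in replicate 1 and 2.27 in replicate 2.

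The Period genes encode the PER repressor subunits. Per1 (ENSMUSG00000020893.17, chromosome 11, 69095217 to 69109960, plus strand) had 14.6 and 7.79, at the 94.1st and 90.01th percentiles. Its highest promoter peak lay at different starts in the libraries. The region over the gene start (69094761 to 69095280) had 14.6 in replicate 1 and 7.11 in replicate 2, and the one at the start 69098948 had 13.7 in replicate 1 and 7.79 in replicate 2. A peak at the start 69100158 was lower, with 10.96 and 4.01. All 4 annotated coding starts of Per1 thus had a peak in both libraries. Per2 (ENSMUSG00000055866.9, chromosome 1, 91415982 to 91459324, minus strand) had 11.2 and 9.02, the 84.0th and 95.1st percentiles. Per3 (ENSMUSG00000028957.12, chromosome 4, 151003652 to 151044665, minus strand) had 15.4 and 8.21, the 95.6th and 92.2nd percentiles.

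The cryptochrome genes encode the partners of PER. Cry1 (ENSMUSG00000020038.10, chromosome 10, 85131700 to 85185064, minus strand) had 11.5 and 10.2, and ranked the 6th of the members in replicate 1 but the 2nd in replicate 2. Cry2 (ENSMUSG00000068742.11, chromosome 2, 92403646 to 92434043, minus strand) had 14.5 and 7.5, the 93.9th and 88.5th percentiles. Cry1 lay at the 85.3rd and 97.5th.

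The REV-ERB genes had the highest promoter values of the members in replicate 1, while in replicate 2 Cry1 and Per2 lay between them. Nr1d1 (ENSMUSG00000020889.11, chromosome 11, 98767932 to 98775333, minus strand) had 16.1 and 10.4, the 96.6th and 97.7th percentiles, and ranked the 1st of the members in both libraries. Nr1d2 (ENSMUSG00000021775.11, chromosome 14, 18204054 to 18239127, minus strand) had 16.1 and 8.57, the 96.5th and 93.7th percentiles. Its highest peak lay just upstream of the gene start in replicate 1 (18239141 to 18239380) and in intron 1 (18238341 to 18238740) in replicate 2. The upstream region (18239001 to 18239380) had 16.1 in replicate 1 and 7.58 in replicate 2, and the intron 1 region 12.9 in replicate 1 and 8.57 in replicate 2, so both were open in both libraries.

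Arntl stood at the edge of the difference between libraries. Over the 11849 genes with a promoter peak in both, the log2 ratio of replicate 1 to replicate 2 had a median of 0.56, with 5th and 95th percentiles of -0.31 and 1.19. Arntl had 1.41, the 98.9th percentile of those ratios. The other 8 members ran from 0.08 at Clock, the 16.8th percentile, to 0.95 at Cry2, the 82.8th, and so lay within the bulk of genes. For Per1 and Nr1d2 the ratio sets peaks at different positions side by side.

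**Figure D2:**
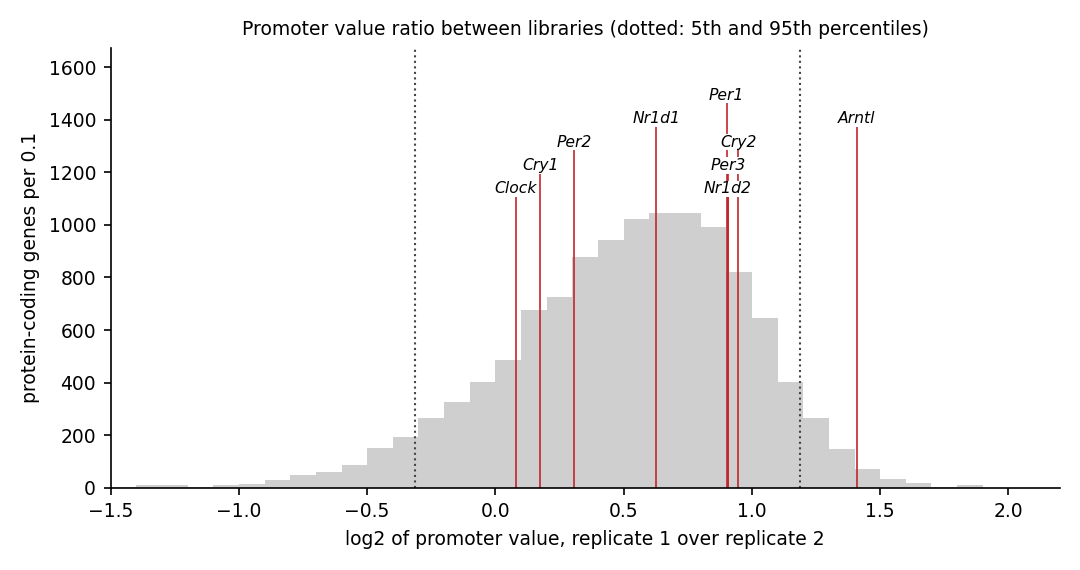
Number of protein-coding genes (y axis) by log2 ratio of promoter value, replicate 1 over replicate 2 (x axis, bins of 0.1), with the 9 clock genes measured in both as red lines. Dotted lines are the 5th and 95th percentiles at -0.31 and 1.19; Arntl, at 1.41, is the member outside them.

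The authors' q-values, given here as −log10 of the q of the most significant base in the promoter peak, ranked the members differently from the peak values. Per3 had 124 in replicate 1 and 54.4 in replicate 2, and Nr1d2 had 113 and 59.1, against medians over all promoters of 32.0 and 26.1. Nr1d1, the highest member by peak value, had 23.3 and 47.6, the 38.8th and 79.7th percentiles of that measure. Per1 lay at its 59.9th and 52.4th percentiles. Npas2 was the lowest where it had a peak, with 4.68 in replicate 2.

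The other genes of the pathway, 19 by the list used, had a promoter peak in both libraries at 18 (94.7%). The 4 highest by the lower of their percentiles included Btrc, an adaptor that marks PER for destruction (20.3 and 15.9), and the PAR bZIP output factors Tef (21.3 and 10.6) and Dbp (16.9 and 8.10). The other was Csnk1d, a kinase that phosphorylates PER, with 11.996 and 13.2, which lay above Tef and Dbp in replicate 2. The medians of the 18 were 6.63 in replicate 1 and 3.795 in replicate 2, lower than those of the 9 clock members and close to those of all promoters.

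The tissue label was checked with markers. Of 10 muscle fibre markers 8 had a promoter peak in both libraries. Their values were 2.39 to 6.51 in replicate 1 and 1.65 to 3.39 in replicate 2. Their median percentiles among promoters were low, the 35.4th in replicate 1 and the 22.2nd in replicate 2. Tnnt3 had a peak in replicate 1 alone, and Myh4 had none. As above, 54.2% of all genes had one in both. Fibroblast markers had peaks at 4 of 5, endothelial markers at 3 of 6 and satellite cell markers at 1 of 4, while macrophage, liver and neuron markers had them at 0 of 5 each. In a single library, the endothelial marker Cdh5 had a peak in replicate 1, and the satellite cell markers Pax7 and Myf5 had theirs in replicate 2. Nuclei of the whole tissue were used, so openness in fewer cells cannot be told apart from weaker openness in each cell.

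Beyond promoters, a distal region was a region with a peak of each library that lay over 1 kb from every annotated start site, within the gene body or 10 kb either side. Of the 10 clock genes 7 had at least 1 such region, beside 32.2% of all protein-coding genes. They held 20 in all, with a median of 2 per clock gene against 0 over all genes. Per1, Per2 and Cry2 had 4 each, Arntl 3, Npas2 and Nr1d1 2 each, and Cry1 had 1. Clock, Per3 and Nr1d2 had none. Long genes can hold more regions, so each member was set beside genes of the same length decile. As many regions as at Per1 were found at 0.778% of such genes, as many as at Cry2 at 1.65%, as at Per2 at 2.79% and as at Nr1d1 at 5.54%. For Arntl the share was 10.9%, and for Npas2 and Cry1 it was 39.2% and 39.1%. These counts include the flanks of 10 kb, and at Per1 only the region in intron 1 lay in the gene body.

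The strongest distal regions lay in the first introns of Nr1d1 and Per1. The Nr1d1 region (98773801 to 98774200, centred 1333 bp into the gene) had 24.3 in replicate 1 and 10.6 in replicate 2, against 16.1 and 10.4 at its promoter. Among 15864 distal regions open in both libraries across the genome, whose medians were 1.87 and 1.38, it lay above the 99.8th percentile in both libraries. The Per1 region (69096981 to 69097240, centred 1893 bp into the gene) had 21.1 and 10.3, against 14.6 and 7.79 for the highest promoter peak. Both introns thus exceeded their own promoters in each library, narrowly so at Nr1d1 in replicate 2.

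Other strong distal regions were found at Nr1d1, Per1 and Cry2. The Nr1d1 region 8008 bp upstream of the gene (98783341 to 98783640) had 10.3 in replicate 1 and 6.64 in replicate 2. The strongest at Cry2, in intron 3 (92423841 to 92424040), had 9.22 and 4.97, at the 99.0th and 97.3rd percentiles of distal regions. Downstream of Per1, the region at 69110841 to 69111020 had 6.98 and 6.30, and its nearest coding start was that of Hes7, 9384 bp away. A further region downstream of Per1, at 69118721 to 69119000, had 3.40 and 2.83 and lay 1404 bp from a Hes7 start. Upstream of Per1, the region at 69092441 to 69092640 had 4.25 and 4.23. Whether any of these regions acts on the clock gene it was counted for was not measured.

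Distal regions of the remaining members were weaker. Those of Per2 had 2.15 to 4.46 in replicate 1 and 1.34 to 2.23 in replicate 2, and the strongest by rank lay in intron 17 (91428721 to 91428920). The strongest at Arntl, 5553 bp upstream (113201692 to 113201912), had 1.25 and 1.11. Npas2 had at most 1.58 and 1.097, with its leading region in intron 2 (39284841 to 39285080), and Cry1 had 1.01 and 0.959 in intron 2 (85154313 to 85154480). By the lower of its percentiles, each leading region of Arntl, Npas2 and Cry1 lay in the lower part of distal regions (21.3rd, 30.2nd and 10.5th), and that of Per2 at the 76.2nd.

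**Figure D3:**
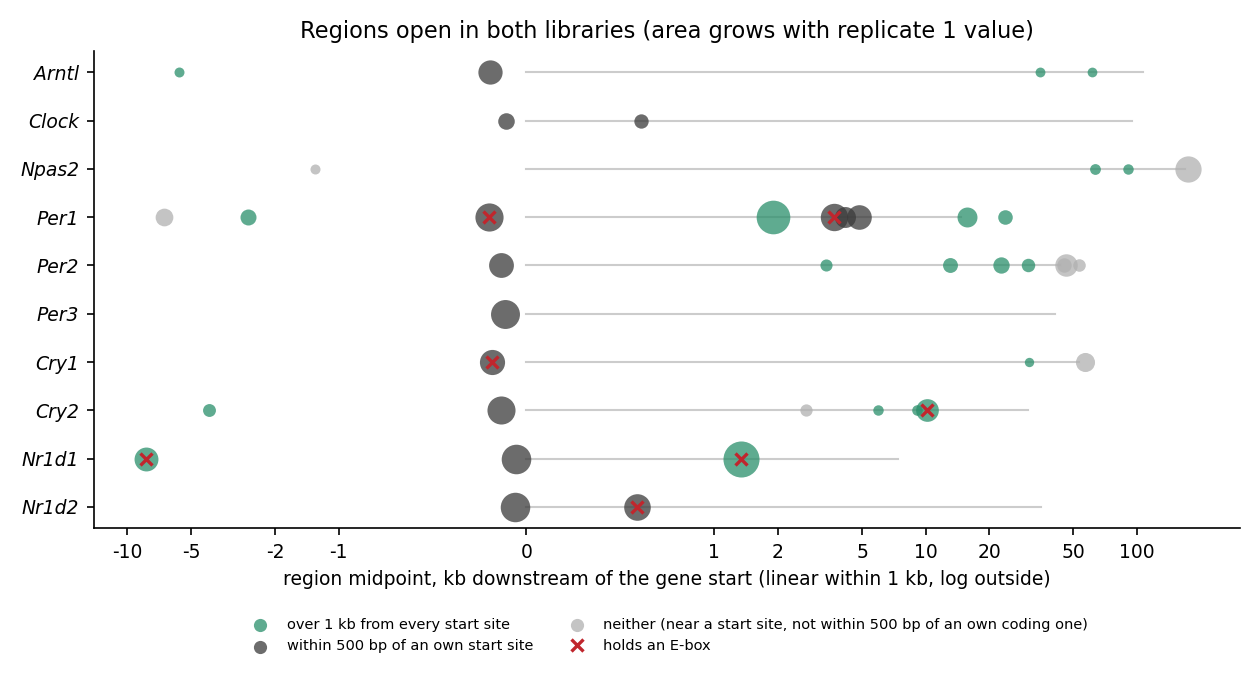
Regions open in both libraries at each clock gene, by distance of the midpoint from the gene start (x axis in kb, linear within 1 kb and log outside). Circle area grows with the replicate 1 value, colours give the class, grey lines the gene body and red crosses regions with an E-box; the largest distal circles are those in intron 1 of Per1 and Nr1d1, and Per2 was not searched for E-boxes.

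The surroundings of Nr1d1 differed between libraries more than those of any other member. Within the gene and 10 kb either side, replicate 1 had 3 peaks of the shorter list and replicate 2 had 17. All 3 regions of replicate 1 were found in replicate 2, and 13 further regions were found in replicate 2 alone, with values of 0.309 to 1.95. Over the same span, starts of neighbouring genes included, the bases with a q-value at or below 0.05 numbered 1835 in replicate 1 and 8752 in replicate 2, a ratio of 4.77. At the other members that ratio ran from 0.854 at Nr1d2 to 1.89 at Npas2. Genome-wide, the shorter list covered 9.11 Mb in replicate 1 and 11.6 Mb in replicate 2. Neither the ratio nor the regions of a single library were counted over all genes, so how unusual Nr1d1 is was not tested. The 3 regions shared by both libraries were also the strongest in each, so the extra regions of replicate 2 were all weaker than those. The highest of the extra regions, with 1.95, still lay above the median of 1.33 over all peaks of that list.

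Footprints are short stretches inside open DNA that were cut less than their flanks, as under a bound protein; here the authors' footprint positions were used, since the deposited score is the same for all. All 14 promoter regions of clock genes that were open in both libraries held a footprint shared by both (at least 1 bp of overlap), beside 86.5% of all 13125 such regions. Shared footprints were counted as overlapping pairs, so a footprint that overlapped more than 1 of the other library entered each such pair. Per3 thus had 9 pairs from 8 footprints in replicate 1. The clock regions had a median of 5 shared pairs, or 1.51 per 100 bp, against 3 and 0.833 over all. The clock promoters also had higher median peak values than all promoters. Regions of like value were not compared, so these counts cannot be read as particular to clock genes. Counts of shared pairs per gene were 14 over the 4 regions of Per1, 11 over the 2 regions of Nr1d2 and 7 over the 2 of Clock. In single regions, Per3 had 9, Per2 and Cry1 7 each, Nr1d1 6, Cry2 5 and Arntl 2.

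Arntl also had few shared footprints. Its promoter region was 540 bp long and held 6 footprints in replicate 1 and 7 in replicate 2, with 2 overlapping pairs. Its density of shared pairs was 0.370 per 100 bp, the lowest of the members counted by gene, while Nr1d1 had 2.31, the highest. Clock, with its regions pooled, had 0.673, and its intron 1 region alone had 2 pairs in 600 bp, so Arntl was not alone. The value of the Arntl peak was also among the lower ones in replicate 2, and the part of signal height in footprint calls was not tested.

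E-boxes lay in 7 open regions of Per1, Cry1, Cry2, Nr1d1 and Nr1d2, which held 13 of them. Of these 13 sites, 10 overlapped a footprint of each library by at least 1 bp, beside 22.1% of 2872 E-boxes in regions open in both libraries across the genome. All 13 lay in regions at or above the 90th percentile of peaks in both libraries, where 43.7% of 607 sites genome-wide did so. The 10 sites lie in few regions and are not independent of each other. In replicate 1 footprints overlapped 10 of the 13, and in replicate 2 all 13. A stricter count, of E-boxes lying wholly inside a footprint of both libraries, gave 3. For the stricter count and for single libraries no genome-wide share was computed, so those counts have no comparison.

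The E-boxes of the repressor genes lay at promoters and inside introns. In the Per1 promoter shown above, those at 69094883 and 69095067, 329 and 145 bp from the nearest coding start, overlapped footprints of both libraries. The site at 69094883 had only 2 of its 6 bases in the replicate 1 footprint. A further Per1 E-box at 69098783, 160 bp from an internal start, overlapped a footprint of replicate 2 alone. The Cry1 E-box at 85185109, 45 bp from the start, overlapped both. At Cry2 the promoter region held none, and the pair in intron 3, at 92423867 and 92423920, each lay wholly inside footprints of both libraries.

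In intron 1 of Nr1d1 the E-boxes at 98773859, 98773874 and 98774154 all overlapped footprints of both libraries. The one at 98774154 lay wholly inside both, while that at 98773874 had only 1 of its 6 bases in the replicate 2 footprint. The sequence shown holds the E-boxes at 98774154 and 98773874, at its opposite ends, and not the one at 98773859. The upstream region of Nr1d1 held a further E-box, at 98783542, with 5 of its 6 bases in the replicate 1 footprint and all 6 in that of replicate 2. In intron 1 of Nr1d2, of the E-boxes at 18238525, 18238570 and 18238673, the one at 18238570 overlapped footprints of both libraries and the other two those of replicate 2 alone. The promoter regions over the gene starts of Nr1d1 and Nr1d2 held no E-box, so at both genes the E-boxes lay in intron 1 or far upstream.

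**Figure D4:**
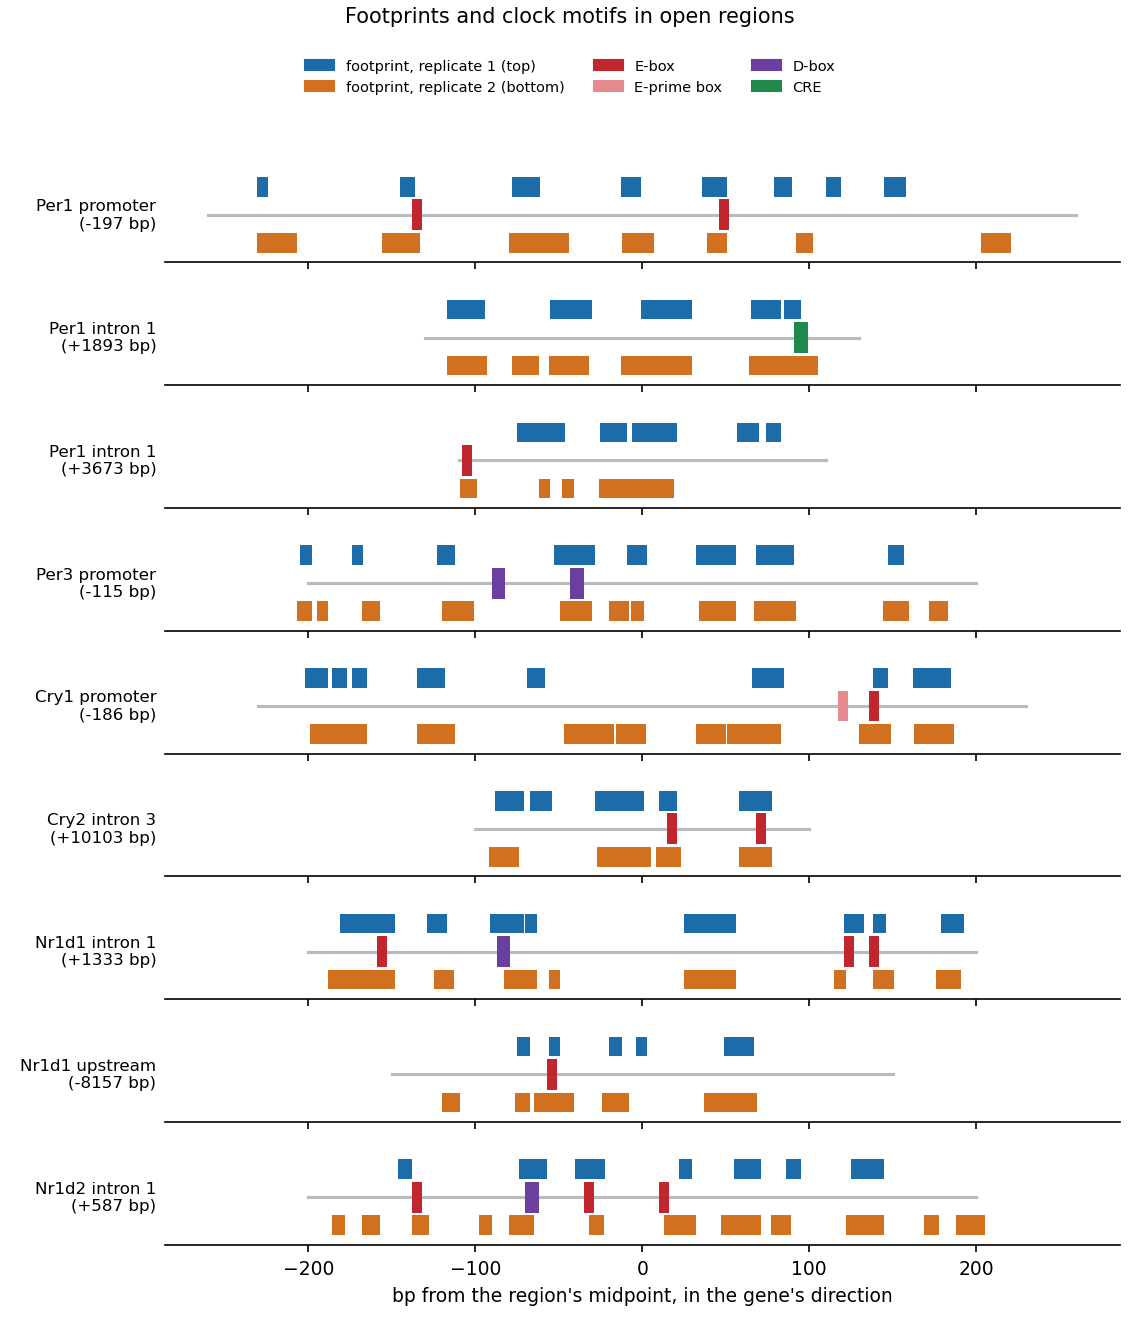
Footprints of replicate 1 (top, blue) and replicate 2 (bottom, orange) and motif matches (middle bars) in 9 open regions of clock genes, by bp from the region's midpoint (x axis) in the direction of the gene; grey lines give the region, and labels give the midpoint's distance from the gene start. The E-boxes of Cry2 intron 3 sit inside footprints of both libraries, and a D-box of the Per3 promoter does likewise.

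D-boxes were found at Per3, Nr1d1 and Nr1d2. The Per3 promoter held 2, of which the one at 151044816, 151 bp from the start, lay wholly inside footprints of both libraries and the one at 151044863 in neither. The D-boxes in intron 1 of Nr1d1 (98774080) and of Nr1d2 (18238603) overlapped footprints of both. Thus 3 of 4 sites did so, beside 11.2% of 394 across the genome and 39.4% of 33 in regions at or above the 90th percentile. At both REV-ERB genes the D-box lay in the same intronic region as the E-boxes.

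The single CRE of the members lay in the Per1 intron 1 region shown above, at 69097202. Footprints of both libraries overlapped it, as they did 77.5% of 681 such sites and 90.8% of 249 in regions at or above the 90th percentile. E-prime boxes numbered 5, at Arntl, Clock, Cry1, Cry2 and Nr1d1. Those in the Clock intron 1 region (76303994) and in the Cry2 promoter (92434230) lay wholly inside footprints of both libraries, and no other did. Footprints of both libraries thus overlapped 2 of 5, beside 10.9% of 1620 sites. In regions at or above the 90th percentile this was 1 of 3, beside 24.5% of 253. ROR elements numbered 3, at Clock and Npas2, and none overlapped a footprint of either library, beside 10.2% of 645 sites that overlapped both. An ROR element of the Arntl promoter window, at 113207539, straddled the end of the open region. It overlapped a footprint of replicate 2 alone.

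The promoters also differed from each other in general promoter motifs. In windows of 300 bp around RefSeq start sites (250 bp before to 50 bp after, 13 windows of 9 members, none of them at the Per1 gene start 69095217), the GC box (GGGCGG) was in 11 of 13, beside 47.7% of 20143 windows of all genes. The CCAAT box (CCAAT) was in 9 of 13, beside 37.8%. The E-box was in 2 of 13 beside 8.03%, the E-prime box in 3 beside 4.70%, and the ROR element, at Arntl, and the D-box, at Per3, in 1 each beside 1.99% and 2.21%. The CRE was in 0 of 13 beside 2.31%. Windows of the same gene can overlap, and by gene the GC box was in 8 of 9 and the CCAAT box in 7. The 20143 windows were taken whether open or not. In the central 200 bp of promoter regions open in both libraries, the GC box was in 7 of 13 beside 62% of 13125. There the CCAAT box was in 7 of 13 beside 28.1%. All 17 motifs were read on both strands.

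The remaining motifs were found in few of the 13 windows around start sites. The nuclear receptor core (AGGTCA, which an ROR element with A before GGTCA also holds) was in 4 beside 14.4%, and the CRE core (TGACG, which each CRE holds) in 4 beside 24.2%. The NRF1 site (GCGCATGC) was in 2, both of Clock, beside 3.65%. The MEF2 site (CTANNNNTA) and the TEAD site (GGAATG), motifs of muscle gene regulators, were in 1 each, beside 18.6% and 13.4%. Windows with the MyoD E-box (CAGCTG) numbered 0, beside 15.7%, and those with a TATA box (TATAAA) 0, beside 12.1%. Likewise the glucocorticoid element (ACANNNTGT) was in 0 beside 5.84%, the AP-1 site (TGANTCA) in 0 beside 7% and the CTCF core (CCANNAGGG) in 0 beside 6.17%. The muscle motifs did occur in distal regions open in both libraries, searched over their central 200 bp. Of 16 such regions of the members, 5 held the MyoD E-box, beside 26.2% of 15864. The TEAD site was in 5 of 16 beside 12.2%, and the MEF2 site in 3 beside 11.4%.

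A run of CCAAT boxes set the Arntl promoter apart, as seen after the sites were listed. A window of 300 bp at Arntl held 8 of them, and of all 20143 windows 1 had as many, which was that window itself. The open region held 10, with a median gap of 41 bp between the starts of neighbours. The matches at 113207173 and 113207176 start 3 bp apart and share bases, so they are not separate stretches. Of the 10 matches, 9 read CCAAT on the minus strand, opposite to the gene. Footprints of replicate 1 overlapped 4 of the 10 and footprints of replicate 2 overlapped 0. CCAAT boxes are known as sites of the factor NF-Y. The sequence before the gene start is shown because of this run, with the 7 CCAAT boxes it holds in capitals, which read ATTGG on the strand printed.
Arntl promoter (chr7:113207215-113207464, plus strand): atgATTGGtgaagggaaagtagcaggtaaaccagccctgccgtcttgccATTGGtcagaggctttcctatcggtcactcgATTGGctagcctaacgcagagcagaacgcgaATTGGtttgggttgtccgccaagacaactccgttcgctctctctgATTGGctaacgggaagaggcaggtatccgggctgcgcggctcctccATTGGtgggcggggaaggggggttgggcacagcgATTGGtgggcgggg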

How the data were processed

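Each library was deposited with a shorter and a longer peak list, a false discovery rate table and footprints, on the mm10 assembly, per the labels. The aligner, the callers and the handling of CAST/EiJ alleles are not given in the sources used. The peak signal is the authors' height, called per library; within a library it is whole multiples of a step, so values were ranked within libraries. Read depth is unknown. The deposited table gives q-values (p-values corrected by the authors) per run of bases, listing those under 0.05. The deposited footprint score is 0.01 throughout, so positions alone were used.

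Start sites came from the basic set of GENCODE release 21 for mouse, chromosome M left out. Regions were merged where peaks overlapped by 1 bp. Promoter sequences were RefSeq's on GRCm38 and matched 9 of 10 members. Motifs were read from the RefSeq genome of that build. Python 3.11.15, NumPy 2.4.6, SciPy 1.17.1 and pysam 0.24.0 were used, and the functions were tested on simulated data. All 10 members and, for each, the strongest replicated distal region are named, with further regions chosen after their values were seen. Of the other pathway genes, the 4 highest are named, and the result for 1 gene is not reported here. Members, lists and motifs were chosen with earlier results of these data known.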

Additional observations from a re-analysis of the deposited data

How the results depend on the processing

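The number of clock genes with a promoter peak in both libraries was 9 with the longer lists, with only those peaks that reached their list's median and with start site windows of 250 and 1000 bp; leaving out a replicate gave 9 to 10, the 10 from replicate 2 alone, which includes Npas2. The other pathway genes had 18 to 19 under their alternatives. Distal regions, 20 as reported, numbered 34 with the longer lists and 12 with peaks that reached the median, and 28 to 37 in a single library. They numbered 14 in gene bodies alone, and 14 where peaks of the libraries had to overlap reciprocally by 50%. The same rule for footprints reduced the shared pairs to 41, against 68, and single libraries had 81 to 95 footprints. Bases with a q-value at or below 0.05 numbered 22729 in both libraries and 25562 to 39249 in a single library, the higher from replicate 2, where Nr1d1 gave 8752. E-boxes overlapping footprints, 10 as reported, were 3 where the site had to lie wholly inside both and 10 to 13 in a single library, an alternative chosen after seeing the data. Requiring more overlap, a higher value or both libraries lowers these counts by construction. For the members' promoter peaks, the percentile among all peaks of a list, averaged over both libraries, was also varied. Of 27 alternative values of it, 24 moved by less than 1 SD between libraries, and the largest shift was 5.83 points. Start site windows changed it only at Nr1d2 with 250 bp, because elsewhere the same peak was picked. With the longer lists the same peak heights ranked higher at every member, among more peaks of lower median value. An SD from 2 libraries is wide where they differ, as at Arntl, so this count does not measure stability. The percentiles among promoters given above were not varied. No paired analysis was possible because there is 1 group of 2 libraries. With 2 libraries, taken here as 2 animals although they share a donor label, the spread is known only from a single difference per gene.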

Other observations

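Base composition varied among the clock promoters. Over all windows of 300 bp at RefSeq start sites of protein-coding genes the median was 57% G or C, with 14 CpG dinucleotides. The Clock window at its gene start had 76.3% and 42 CpG, and Per3 had 73.3% and 41. Npas2, which had no promoter peak in replicate 1 and the lowest of the members in replicate 2, had 72.7% and 37. Nr1d1, with the highest peak value of the members, had 56.3% and 9 CpG, the lowest CpG count together with that of a further Clock window (9).

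Several regions within 10 kb of a clock gene lay at the start of a neighbour instead. The region beyond the end of Npas2 lay at the start of Rpl31, a ribosomal protein gene, and had 12.6 in replicate 1 and 8.74 in replicate 2, far above the Npas2 promoter. Similar regions lay at Vamp2, a vesicle fusion gene, upstream of Per1 (5.36 and 4.92), at Hes6, a basic helix-loop-helix gene, downstream of Per2 (9.01 and 4.10), and at Mterf2, a mitochondrial gene, downstream of Cry1 (6.31 and 3.87). None of them was counted among the promoter peaks or distal regions of the clock gene, but their bases are part of the q-value bases counted over the gene and 10 kb either side.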
